A study of Mus musculus with 6 samples.

Results

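The BCL-2 family decides whether the outer membrane of mitochondria is opened during apoptosis. Considered here were 10 members, Bcl2, Bcl2l1, Mcl1, Bax, Bak1, Bcl2l11, Bid, Bbc3, Pmaip1 and Bmf. A member was measured by the probe sets whose platform annotation gives its symbol alone, and represented by the one with the highest mean over the 6 arrays. Of the 10 genes, 9 had such probe sets, 30 in all, among 18194 genes with a probe set in the series. Bax was not analysed here. All 9 reached, on at least 1 array, the median of that array and so entered the tests with 13587 genes in total, although Bbc3 reached it on only 3 arrays and Bmf on 5.

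The cells were peritoneal macrophages drawn into the abdominal cavity of mice by thioglycollate, an irritant, and all mice were of mixed C57BL/6 x 129Sv background. One genotype was LysM-Cre+;Akirin2fl/fl, called Akirin2 KO, in which floxed Akirin2 is removed from myeloid cells by Cre recombinase under control of the lysozyme M locus. The other was wild-type. Cells of each genotype were unstimulated (0 h) or stimulated with 100 ng/ml of LPS, a bacterial cell wall component, for 2 or 4 h. The 6 conditions are represented by a single array apiece, and the labels state neither the age or number of mice nor whether cells were pooled. Differences between single arrays therefore have no replicate check and are described by their size, on the log2 scale of the deposited values, where 1 stands for 2-fold. Tests come from limma fits that borrow the spread from the other factor: the LPS effect is tested by how alike it was in both genotypes, and the genotype effect by how constant it was over the 3 times. The fits also draw each gene's spread toward that of all tested genes. This shared spread counted for 6.35 degrees of freedom, beside 2 from the gene's own values. In the test of whether the LPS response differed between genotypes these were 11.5 and 1. Such p-values do not measure the spread between animals.

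Proteins of the family share BCL-2 homology (BH) domains and fall into 3 classes. BCL-2, BCL-XL (from Bcl2l1) and MCL-1 hold back apoptosis. BAX and BAK (from Bak1) form pores in the mitochondrial membrane and release cytochrome c. The BH3-only proteins BIM (from Bcl2l11), BID, PUMA (from Bbc3), NOXA (from Pmaip1) and BMF trigger death by occupying the protective members or by activating the pore formers. In macrophages LPS is known both to raise survival genes through NF-kB and to prime cells for death, so both sides of the family are of interest.

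Akirin2 itself read 5.18, 5.54 and 4.91 in Akirin2 KO at 0, 2 and 4 h, against 7.43, 7.47 and 7.33 in wild-type. The KO level was thus 21.0%, 26.2% and 18.7% of wild-type, and some Akirin2 signal remained. All 8 macrophage markers had a probe set, 7 of them at or above the array median on all arrays, among them Cd68, Csf1r and Lyz2. In the same list Fcgr1 was lower in KO than in wild-type over the 3 times (-0.89, adjusted p = 0.0115), and Adgre1 differed by -0.42 without passing (adjusted p = 0.131). The linear sum over 9 mesothelial and fibroblast markers stood apart by genotype. It lay between 451.1 and 533.6 in the KO arrays and between 725.8 and 789.3 in the wild-type arrays. Col1a1 (7.79 to 8.71) had the highest values in this sum. In limma only Col1a2 was called, lower in KO (-0.83, adjusted p = 0.0372). Col1a1, Col3a1 and Dcn were lower in KO at all 3 times without passing. Msln and Krt19 reached the array median on 1 array each, and Upk3b was higher in KO at 2 and 4 h. As a sign of RNA quality, the 3′ probe sets of Actb exceeded its 5′ ones by 4.64, 4.50 and 4.36 in KO and 4.22, 4.16 and 4.09 in wild-type. For Gapdh the excess was 4.34, 4.52 and 4.44 in KO and 4.33, 4.33 and 4.42 in wild-type, so the genotypes lay closer by that check. The KO array at 0 h also carried higher bioB and bioC hybridisation spikes, 10.66 against 9.87 to 10.24 on the other 5 arrays.

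**Figure D1:**
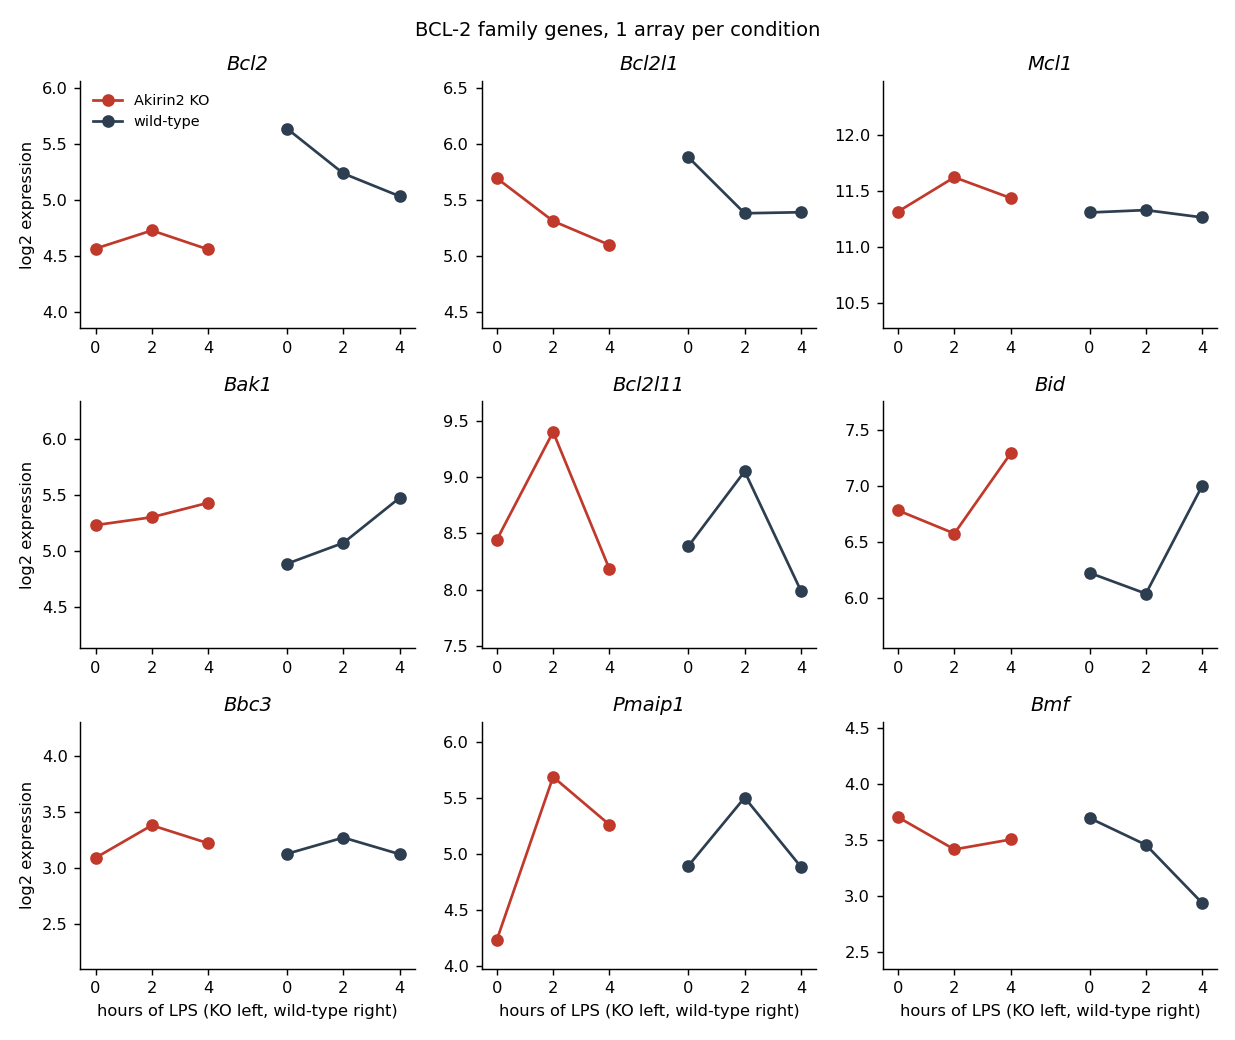
Log2 expression of each of the 9 measured genes on the 6 arrays, by hours of LPS, with Akirin2 KO on the left and wild-type on the right of each panel. All panels span the same number of log2 units and each point is 1 array. Bcl2l11 and Pmaip1 peak at 2 h in both genotypes, and Bid is highest at 4 h in both. Bcl2 is lower in Akirin2 KO than in wild-type at each time.

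After LPS, Bcl2l11 and Pmaip1 were called higher at 2 h, Bid higher at 4 h, and Bcl2l1 lower at 4 h. In the fit over both genotypes, 2 of the 9 genes were called higher and 0 lower at 2 h, where limma called 3.96% of all genes higher and 2.89% lower. At 4 h, 1 was called higher and 1 lower, where 7.76% and 7.61% of all genes were. The share of all genes called in either direction was 6.85% at 2 h and 15.4% at 4 h. The later count of 2 in 9 is near that background. Between 2 and 4 h, 1 member was called higher and 1 lower, where 1.56% and 1.11% of all genes were, 2.67% in either direction. The median difference of the 9 genes was 0.13 at 2 h and 0.039 at 4 h, beside -0.042 and -0.026 over all genes. In a bulk sample, fewer cells of a type and less RNA per cell cannot be told apart.

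Bcl2l11 encodes BIM, which binds all protective members and can activate BAX and BAK directly. Its log2 value was 8.44, 9.40 and 8.18 in Akirin2 KO at 0, 2 and 4 h. In wild-type it was 8.39, 9.05 and 7.99. Both genotypes thus had their highest value at 2 h and their lowest at 4 h. The change from 0 to 2 h was 1.95-fold in KO and 1.59-fold in wild-type, and from 2 to 4 h it was -1.22 in KO and -1.07 in wild-type on the log2 scale. In limma Bcl2l11 rose by 0.82 at 2 h (SE 0.15, adjusted p = 0.0163) and fell by 1.14 between 2 and 4 h (SE 0.15, adjusted p = 0.00849). At 4 h against 0 h the difference was -0.33 (95% confidence interval -0.68 to 0.021, adjusted p = 0.204). The rise at 2 h lost its call without the KO 2 h array (0.70, adjusted p = 0.214) or the wild-type 2 h array (0.93, adjusted p = 0.0720), each of which leaves 1 array at that time. The fall from 2 to 4 h lost it without the KO 2 h array (-1.03, adjusted p = 0.0670).

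Bcl2l11 has 5 probe sets, and all 5 were higher at 2 h than at 0 h and lower at 4 h than at 2 h in both genotypes, also after quantile normalization again and with each array centred. From 0 to 2 h they differed by 0.75 to 1.17 in KO and by 0.29 to 0.67 in wild-type. With each probe set tested on its own, 2 of the 5 were called higher at 2 h and 2 lower between 2 and 4 h, where limma called 5.66% and 1.89% of all 24253 probe sets. At 4 h they did not run together. The probe set 1456006_at was 0.37 above its 0 h value in KO and -0.64 relative to it in wild-type, while the represented one stood at -0.26 and -0.40. Probe sets of 1 gene share arrays and are not replicates.

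The sequence just before the annotated start of Bcl2l11 is shown because its LPS time course was shared by all its probe sets at 2 h and because FOXO factors, which bind the motif searched, are known regulators of BIM. It is the 250 bases upstream of an annotated start in RefSeq's GRCm38.p6 table, chr2:128125788-128126037 on the plus strand, 5′ to 3′, with the match to the FOXO motif in capitals.
Bcl2l11 upstream: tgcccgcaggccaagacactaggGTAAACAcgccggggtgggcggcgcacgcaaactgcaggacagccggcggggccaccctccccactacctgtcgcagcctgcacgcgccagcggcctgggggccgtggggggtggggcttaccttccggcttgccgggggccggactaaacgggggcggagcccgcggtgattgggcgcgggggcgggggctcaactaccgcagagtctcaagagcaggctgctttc
The match, GTAAACA, is the reverse complement of TGTTTAC and lies 227 to 221 bases before the start. Of 32851 such windows over all genes, 3.17% hold that motif on either strand. The other motifs searched on both strands were an NF-kB form (GGG, any 2 bases, then TTTCC, in 1.41% of windows), AP-1 (TGANTCA, 6.75%), CRE (TGACGTCA, 1.55%) and E-box (CACGTG, 6.02%), and this window held no match to them. A second Bcl2l11 window, chr2:128127325-128127574, held no match to any of the 5 motifs, and a Bbc3 window also held a FOXO match. A match describes letters and does not show binding.

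Among the regulators fixed as a list for this report, Foxo3, the gene of a FOXO factor, fell after LPS. Its value was 9.90, 8.63 and 8.91 in Akirin2 KO and 10.05, 8.13 and 8.70 in wild-type. At 2 h it fell by 1.60 (SE 0.18, adjusted p = 0.00151), and at 4 h by 1.17 (SE 0.18, adjusted p = 0.00326). Foxo1, the other FOXO gene of the list, differed by -0.0058 at 2 h (adjusted p = 0.994) and 0.15 at 4 h (adjusted p = 0.725). These fits average opposite directions. Foxo1 read 4.93, 5.34 and 5.54 in Akirin2 KO and 5.62, 5.20 and 5.31 in wild-type. In the test of whether the LPS response differed between genotypes it had 0.88 and did not pass.

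Pmaip1 encodes NOXA, a BH3-only protein that binds MCL-1 above all. Its value was 4.23, 5.69 and 5.26 in Akirin2 KO at 0, 2 and 4 h. In wild-type it was 4.89, 5.50 and 4.88. The KO array started lowest of all 6 and was still 2.04-fold above its start at 4 h, while wild-type stood at -0.0095 relative to its own start on the log2 scale. Pmaip1 was the only member at least 2-fold higher after LPS on single arrays. It was so in KO at 2 h (2.74-fold), where 2.44% of all genes were and 3.35% were 2-fold apart in either direction. It was so again in KO at 4 h, where these shares were 4.07% and 6.54%, but at 4 h it was under 2-fold after quantile normalization again or with arrays centred. In wild-type its difference was 1.52-fold at 2 h, and 0 members were 2-fold apart in either direction at 2 or 4 h, against 4.45% and 8.47% of all genes. Over both genotypes Pmaip1 rose by 1.03 at 2 h (SE 0.24, adjusted p = 0.0402). The call was lost without the KO 0 h array (0.56, adjusted p = 0.0846), without the KO 2 h array (0.87, adjusted p = 0.175), with no expression floor (adjusted p = 0.0539) and with a higher floor (adjusted p = 0.0523). The KO 0 h array is the one with the higher hybridisation spikes, and their part in the result was not tested.

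Bid encodes a protein that caspase-8 cuts into an active fragment, linking death receptors to mitochondria. Its value was 6.78, 6.57 and 7.29 in Akirin2 KO and 6.22, 6.04 and 7.001 in wild-type. Within each genotype the 2 h value was lowest and the 4 h value highest. Bid rose by 0.64 at 4 h against 0 h (SE 0.15, adjusted p = 0.0241) and by 0.84 between 2 and 4 h (SE 0.15, adjusted p = 0.0296). The 4 h rise lost its call without the wild-type 0 h array (0.57, adjusted p = 0.0689) or the wild-type 4 h array (0.51, adjusted p = 0.181). The rise from 2 to 4 h lost it without the KO 2 h (0.89, adjusted p = 0.145), wild-type 2 h (0.78, adjusted p = 0.348) or wild-type 4 h array (0.71, adjusted p = 0.180), with arrays centred (0.80, adjusted p = 0.0838) and with probe sets averaged (0.48, adjusted p = 0.146). A second probe set differed by 0.55 at 4 h against 0 h without passing (adjusted p = 0.104). It did not share the low 2 h value, standing above 0 h by 0.17 in KO and 0.20 in wild-type. From 2 to 4 h it differed by 0.37 in limma (adjusted p = 0.540). The third read below the array median on every array.

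Bmf and Bbc3 encode BH3-only proteins linked to cell detachment and stress for BMF and to p53 for PUMA. Bmf read 3.70, 3.42 and 3.51 in Akirin2 KO and 3.70, 3.46 and 2.94 in wild-type, near the array medians of 3.18 to 3.23. The fitted difference at 4 h was -0.48 (adjusted p = 0.132). All 3 of its probe sets were lower at 2 h than at 0 h in both genotypes. The represented probe set and that named 1454880_s_at may both cross-hybridise, and without such probe sets the 4 h difference was 0.093 (adjusted p = 0.758). The probe set 1454880_s_at read 3.11, 2.46 and 2.49 in KO and 3.84, 2.58 and 2.92 in wild-type, and fell by 0.95 at 2 h (SE 0.18, adjusted p = 0.0148) and by 0.77 at 4 h (SE 0.18, adjusted p = 0.0215) when each probe set was tested, where limma called 12.6% of all probe sets at 4 h. It reached the array median on 1 array only, that of wild-type at 0 h. It therefore entered the tests only through an array from which its fall is measured. Bbc3 read 3.09, 3.38 and 3.22 in KO and 3.13, 3.27 and 3.13 in wild-type, at the level of the array medians, and its differences at 2 h (0.22, adjusted p = 0.473) and 4 h (0.063, adjusted p = 0.827) did not pass.

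**Figure D2:**
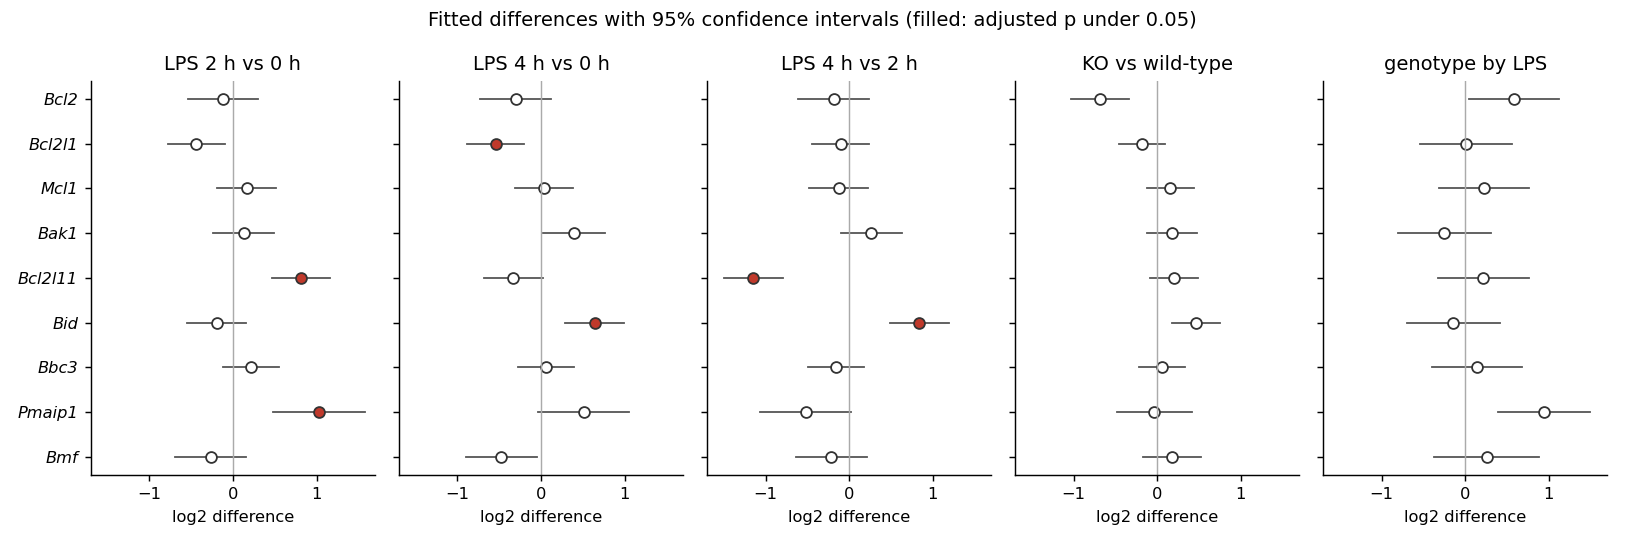
Fitted log2 differences of the 9 genes in 5 comparisons, with 95% confidence intervals from limma over all 6 arrays; filled points passed an adjusted p of 0.05 over all 13587 genes. The filled points are Bcl2l11 and Pmaip1 at 2 h, Bcl2l1 and Bid at 4 h, and Bcl2l11 and Bid between 2 and 4 h; none is filled for genotype or for the interaction.

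Of the protective members, Mcl1 encodes MCL-1, a short-lived survival protein. Its represented probe set read 11.31, 11.62 and 11.44 in Akirin2 KO and 11.31, 11.33 and 11.26 in wild-type. The genotypes were 0.0077 apart at 0 h, and both later KO values lay above every wild-type value. The fitted differences were 0.16 at 2 h (adjusted p = 0.624) and 0.039 at 4 h (adjusted p = 0.900). Other Mcl1 probe sets gave a different picture. The one named 1416881_at read 8.38, 9.30 and 8.91 in KO and 8.11, 8.90 and 8.45 in wild-type, and rose by 0.86 at 2 h when each probe set was tested (SE 0.15, adjusted p = 0.0112). The remaining 4 differed by 0.099 to 0.36 at 2 h and did not pass. The represented probe set was one of 3 whose names end in _x_at, which may cross-hybridise, and these 3 had the smallest differences at 2 h.

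All 6 Mcl1 probe sets were higher in Akirin2 KO than in wild-type at 2 h (by 0.25 to 0.40) and at 4 h (by 0.17 to 0.46), also under both other scalings. At 0 h, 3 of the 6 were higher in KO as deposited, 5 after quantile normalization again and 6 with arrays centred. In wild-type, 4 of the 6 were above their 0 h value at 2 h, but 3 after quantile normalization again and 6 with arrays centred, so the direction in wild-type depends on scaling. The fitted KO difference over the 3 times was 0.16 for the represented probe set (95% confidence interval -0.13 to 0.44, adjusted p = 0.602), and 0 of the 6 probe sets passed, where 1.5% of all probe sets did.

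The upstream window of Mcl1 held a match to the NF-kB form, 28 to 19 bases before the annotated start and on the minus strand of the gene. It is shown with 10 bases on either side, at chr3:95658683-95658712 on the plus strand of GRCm38.p6 (RefSeq), with the match in capitals, beside the matches in a Bcl2l1 window (chr2:152830916-152830945, minus strand) and a Bbc3 window (chr7:16309437-16309466, plus strand), because these were the only 3 of the genes with such a match.
Mcl1 site: ccagccctccGGAAACGCCCgcccctttcc
Bcl2l1 site: tacgcctctcGGAAAAACCCgggagtggtc
Bbc3 site: ctggctgccgGGAAACCCCCcgcgccgagg
The table held 16 windows for 9 of the 10 genes, Bax included and Pmaip1 not, several for some of them. The fitted difference at 2 h was 0.16 for Mcl1, -0.44 for Bcl2l1 and 0.22 for Bbc3.

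**Figure D3:**
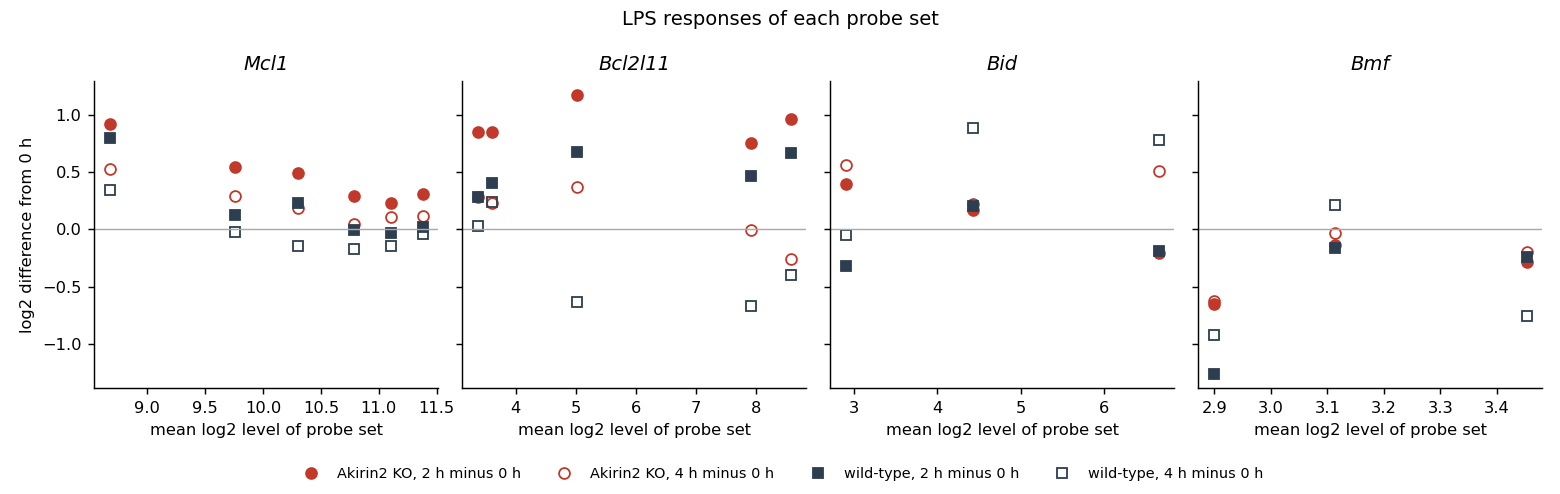
Log2 differences from 0 h of every probe set of Mcl1, Bcl2l11, Bid and Bmf (vertical axis) against the mean log2 level of the probe set over 6 arrays (horizontal axis); circles are Akirin2 KO and squares wild-type, filled at 2 h and open at 4 h. All 5 Bcl2l11 probe sets lie above 0 at 2 h in both genotypes, and the Mcl1 probe set with the lowest mean level has the largest differences at 2 h.

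Bcl2l1 encodes BCL-XL. It read 5.69, 5.31 and 5.10 in Akirin2 KO and 5.88, 5.38 and 5.39 in wild-type, and both stimulated values lay below the unstimulated one in each genotype. The difference was -0.44 at 2 h (adjusted p = 0.136), and at 4 h Bcl2l1 fell by 0.54 (SE 0.15, adjusted p = 0.0430). That call was lost without any single array (adjusted p of 0.0713 to 0.203), with arrays centred (-0.51, adjusted p = 0.0804) with its 4 probe sets averaged (-0.17, adjusted p = 0.436) and when each probe set was tested on its own (adjusted p = 0.0504). The other 3 probe sets reached the array median on at most 2 arrays.

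Bcl2 encodes the founding member of the family. Its represented probe set read 4.57, 4.73 and 4.56 in Akirin2 KO and 5.64, 5.24 and 5.04 in wild-type. The genotypes were 2.10-fold apart before LPS, 1.42-fold after 2 h and 1.39-fold after 4 h, lower in KO each time. It was the only member at least 2-fold lower in KO at 0 h, where 1.15% of all genes were and 1.93% were 2-fold apart in either direction. At 2 h and 4 h, 0 members were 2-fold apart between genotypes, against 0.949% and 1.45% of all genes. After quantile normalization again, with arrays centred or with its probe sets averaged, no member was 2-fold apart at 0 h either. After LPS, Bcl2 differed from 0 h by 0.16 and -0.0071 in KO and by -0.40 and -0.60 in wild-type at 2 and 4 h. Neither LPS time passed in the fit over both genotypes (adjusted p of 0.785 and 0.334).

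Bak1, the pore former measured here, read 5.23, 5.30 and 5.43 in Akirin2 KO and 4.89, 5.08 and 5.48 in wild-type. Its values increased with time in both genotypes. The fitted difference at 4 h was 0.39 (95% confidence interval 0.027 to 0.76) and did not pass after adjustment (adjusted p = 0.149).

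Between genotypes over the 3 times, limma called 0 of the 9 members, where 1.95% of all genes were called, 0.891% higher and 1.06% lower. An unadjusted p under 0.05 was reached by 2 members and by 15.4% of all genes, so a count of 2 in 9 is near that background. Bcl2 had the largest fitted difference, -0.68 (SE 0.15, 95% confidence interval -1.03 to -0.34, adjusted p = 0.0681). It passed without the 4 h arrays (-0.79, adjusted p = 0.0455) and under a trended, robust eBayes prior (adjusted p = 0.0196). Leaving out just 1 of the 4 h arrays gives the same genotype fit and is no separate test. With its 5 probe sets averaged the difference was -0.14. The other 4 Bcl2 probe sets read between 2.73 and 3.65, and their mean differences lay between -0.093 and 0.13. Beside this difference stand the lower sum of mesothelial and fibroblast markers and the higher Actb 3′ to 5′ difference of the KO arrays. Their part in the Bcl2 difference was not tested.

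Bid was higher in Akirin2 KO at all 3 times, by 0.56, 0.54 and 0.29, and its second probe set by 0.77, 0.73 and 0.11. The fitted difference was 0.46 (SE 0.13, 95% confidence interval 0.17 to 0.75, adjusted p = 0.121), and of the alternatives tried it passed only under a trended, robust eBayes prior (adjusted p = 0.0259). The fitted differences of the other 7 members lay between -0.18 and 0.20. The median of the 9 was 0.16, beside -0.011 over all genes. These values have the same marker and Actb differences beside them.

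Whether the LPS response differed between genotypes was tested by the interaction of genotype with stimulation. It called 0 of the 9 members and 0.0294% of all genes. An unadjusted p under 0.05 was reached by 2 members and by 12.8% of all genes. Pmaip1 had the largest interaction among the members, 0.94 (SE 0.25, 95% confidence interval 0.39 to 1.49, adjusted p = 0.163). The response was larger in KO than in wild-type by 0.85 at 2 h and 1.04 at 4 h. Pmaip1 was itself 0.66 lower in KO before LPS, so these differences include that gap. The median interaction over all genes was 0.10 as deposited and -0.11 with arrays centred; relative to the median as deposited Pmaip1 stood at 0.84, and with arrays centred its interaction was 0.73 (adjusted p = 0.316). Bcl2 had 0.58 (adjusted p = 0.357), and -0.067 with its probe sets averaged. For Bcl2l11 the interval was -0.33 to 0.76 and for Mcl1 -0.32 to 0.77.

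The other genes of the apoptosis machinery were taken from 6 lists. Of 15 further BCL-2 family genes, 11 had a probe set with their symbol alone. Bcl2a1a, Bcl2a1b, Bcl2a1d and Bnip3l had none and were not measured here. Of the 15 genes, 8 were tested and 0 were called at any LPS time or between genotypes. The unadjusted limma intervals excluded 0 for Bcl2l2 at 4 h (0.52, adjusted p = 0.0504), a protective member, and for Bnip3 between genotypes (-0.72, adjusted p = 0.116), a mitochondrial BH3-like gene. They also excluded 0 for Bok, a relative of BAX and BAK, between genotypes (0.41, adjusted p = 0.151), and for Bnip3 at 4 h (-0.58, adjusted p = 0.149) and in the interaction (0.69, adjusted p = 0.373). An unadjusted p under 0.05 was reached by 28.2% of all genes at 4 h, 15.4% between genotypes and 12.8% in the interaction. Among 8 tested genes these exclusions are near that background. Bnip3 read 5.26, 5.26 and 5.20 in Akirin2 KO and 6.43, 6.11 and 5.33 in wild-type. Wild-type approached the KO level by 4 h.

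The gene with the largest fitted LPS difference in the 6 lists, Cflar, was in the death receptor list. Of 9 genes of that list tested, 2 rose at 2 h and 3 at 4 h, and 0 fell, where 3.96% and 7.76% of all genes rose. Cflar encodes c-FLIP, which holds back caspase-8, the enzyme that cuts BID. It read 7.08, 9.31 and 9.20 in Akirin2 KO and 7.29, 9.73 and 9.64 in wild-type, and rose by 2.33 at 2 h (SE 0.15, adjusted p = 6.19e-05). Over the alternatives tried, the 2 h rise was 1.62 to 2.44 for Cflar and 2.16 to 2.44 for Gadd45a, so the rank depends on the setting. The receptor gene Fas rose by 1.19 at 2 h and 1.72 at 4 h, and Mlkl, the executioner of necroptosis, by 1.51 at 4 h.

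Of 7 inhibitor of apoptosis genes, 1 was called higher and 0 lower at 2 h, where 3.96% and 2.89% of all genes were. At 4 h, 2 were called higher and 1 lower, where 7.76% and 7.61% of all genes were. Birc3, which encodes cIAP2, rose by 1.65 at 2 h and 1.59 at 4 h. It read 6.85, 8.49 and 8.46 in Akirin2 KO and 7.28, 8.94 and 8.85 in wild-type. At 4 h Naip2 (0.71) was also called higher and Naip5 (-0.70) lower; both encode sensors of bacterial proteins. As near copies of each other their probe sets may share signal, and Naip2 lost its call without the KO 0 h array (0.41, adjusted p = 0.171) or the KO 4 h array (0.52, adjusted p = 0.191), Naip5 without the wild-type 4 h array (-0.58, adjusted p = 0.122).

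Of 12 apoptosome and caspase genes tested, 2 fell at each LPS time and 0 rose, where 2.89% of all genes fell at 2 h and 7.61% at 4 h. Casp9, the caspase activated by the cytochrome c that BAX and BAK release, read 8.59, 7.70 and 7.93 in Akirin2 KO and 8.72, 7.29 and 7.504 in wild-type. It fell by 1.16 at 2 h (SE 0.18, adjusted p = 0.00693) and by 0.94 at 4 h. With its probe sets averaged the differences were -0.39 (adjusted p = 0.108) and -0.30 (adjusted p = 0.143), and without the wild-type 2 h array the 2 h value was -1.03 (adjusted p = 0.0544), and without the wild-type 4 h array the 4 h value was -0.80 (adjusted p = 0.0530). Casp2 fell by 0.97 and 0.69, and lost these calls without the wild-type array of that time (-0.91, adjusted p = 0.0872 at 2 h; -0.61, adjusted p = 0.111 at 4 h), and at 4 h also without the wild-type 0 h array (-0.55, adjusted p = 0.0691).

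Of 11 tested genes listed as p53 targets, 3 rose and 1 fell at 2 h, where 6.85% of all genes were called in either direction. At 4 h, 3 rose and 2 fell, where 15.4% of all genes were called. Trp53, the gene of p53 itself, was in the list but had no probe set with its symbol alone. Gadd45a rose by 2.299 and the cell cycle inhibitor gene Cdkn1a by 0.96 at 2 h, while Trp53inp1 fell by 1.61 (by 0.86 with its probe sets averaged). Mdm2, which encodes the ligase that degrades p53, rose by 0.83 at 2 h. Cdkn1a and Mdm2 at 2 h lost their calls without either 2 h array (adjusted p of 0.0609 and 0.195 for Cdkn1a, 0.197 and 0.0713 for Mdm2, leaving out KO and wild-type). Cdkn1a also lost it without the wild-type 0 h array (0.57, adjusted p = 0.108), after quantile normalization again (adjusted p = 0.0613) and with arrays centred (adjusted p = 0.0818). Gadd45a was the single listed gene of the 6 lists called between genotypes, where 1.95% of all genes were. The lists held 8, 12, 7, 9, 11 and 16 tested genes, so 1 call is near that background. Gadd45a read 4.89, 7.06 and 6.28 in Akirin2 KO and 5.49, 7.92 and 6.83 in wild-type. It was lower in KO by 0.67 in limma (SE 0.13, adjusted p = 0.0383). That call was lost after quantile normalization again (adjusted p = 0.0636), with arrays centred (adjusted p = 0.0845) and without the 2 h arrays (-0.58, adjusted p = 0.250). Leaving out just 1 of the 2 h arrays gives the same genotype fit.

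Of 16 regulators of BCL-2 proteins, 2 rose and 2 fell at 2 h, and 3 rose and 2 fell at 4 h, beside the same shares of all genes. The kinase genes Pim3 (1.46) and Pim1 (1.25), whose products phosphorylate BAD, rose at 2 h. With probe sets averaged Pim1 was 0.64 at 2 h. Pim3 was 0.20 without probe sets that may cross-hybridise (adjusted p = 0.561). Fbxw7 encodes the subunit of a ubiquitin ligase that marks MCL-1 for decay. It read 8.40, 7.40 and 7.38 in Akirin2 KO and 8.57, 7.20 and 7.41 in wild-type, and fell by 1.18 at 2 h (SE 0.16, adjusted p = 0.00317).

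**Figure D4:**
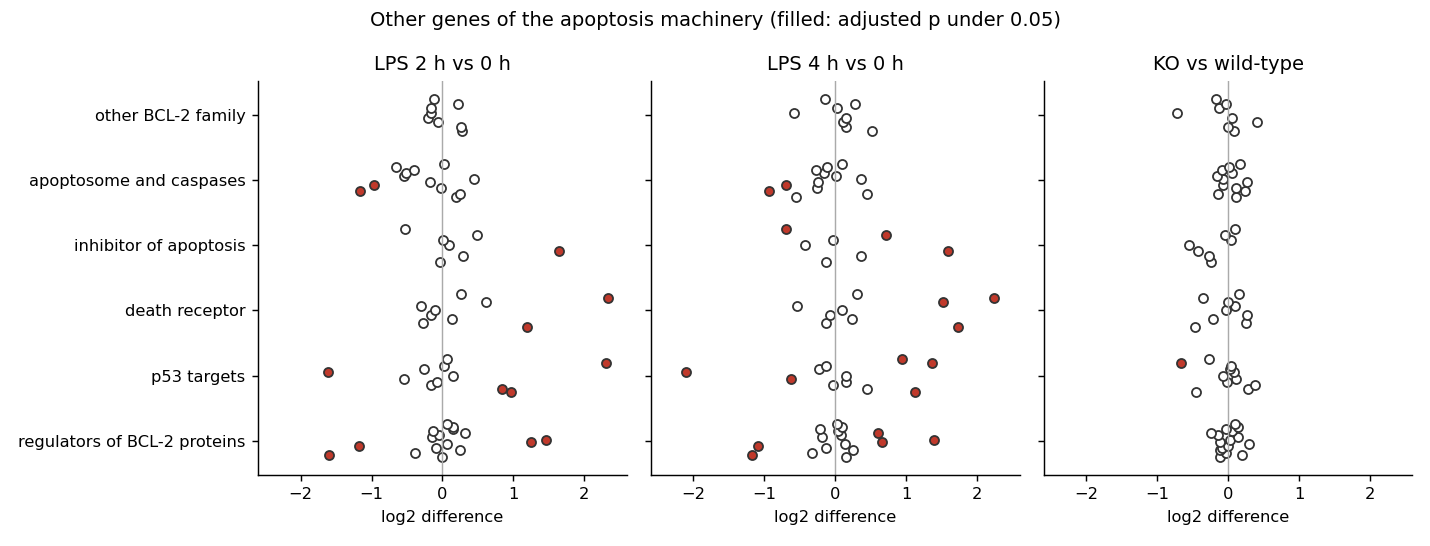
Fitted log2 differences of the tested genes of 6 lists in 3 comparisons; each point is a gene, filled where the adjusted p over all genes was under 0.05. Filled points lie on both sides of 0 after LPS, with Cflar and Gadd45a farthest to the right at 2 h, and 1 gene, Gadd45a, is filled between genotypes.

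Of the 9 members, 4 ranged over at least 1 log2 unit across the 6 arrays. The 3 genes whose values ran most like Bcl2 were Nasp, Cplane1 and Coq7 (Pearson r of 0.995, 0.993 and 0.992 over 6 arrays), and those most like Bcl2l11 were Ufsp1, Tmem225 and Phf13 (0.985, 0.980 and 0.978). For Bid they were Polr2g, Prr14l and Abraxas2 (0.993, 0.985 and 0.982), and for Pmaip1 Spty2d1, Arid5b and Otud6b (0.986, 0.986 and 0.985). Among 13578 genes searched, 14 to 55 per member exceeded 0.95, and all points share the same 6 arrays and conditions. Ufsp1 (2.94 to 3.53) and Tmem225 (2.93 to 3.32) lay around the array medians of 3.18 to 3.23. Both passed the expression floor only through the 2 h arrays, on which Bcl2l11 was highest.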

How the data were processed

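Per the submitters' processing notes, the authors made the deposited log2 values with RMA, a method of background correction, quantile normalization and summary by probe set. Its version is not given in the sources used here. Symbols came from the platform annotation (34958 probe sets with 1 symbol of 45101), and 34754 matched RefSeq by gene number. Deposited log2 values ran from 2.26 to 14.2. Read depth does not apply to arrays; the number of arrays limits precision.

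Fits used limma 3.58.1 in R 4.3.3 (lmFit, eBayes, Benjamini-Hochberg adjustment at 0.05) on genes reaching the array median on at least 1 array. The additive fit held LPS time and genotype (2 residual degrees of freedom); a further fit added genotype by stimulation (1). Scripts were tested on simulated data. Members and lists were chosen with earlier results of these data known. Named outside the members are, per list and comparison, up to 4 called genes, the 3 genes most like a member, and Akirin2. Also named are Bcl2l2, Bnip3, Bok, Foxo1, Fcgr1, Adgre1 and mesothelial and fibroblast markers, picked after their values were seen. Some listed genes without a probe set are named too. Alternatives are given in the closing section.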

Additional observations from a re-analysis of the deposited data

How the results depend on the processing

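No paired analysis was possible because the labels give no replicate numbers and each condition has 1 array. The count of members called at 2 h of LPS was 2, and 1 with no floor or the higher floor, and 4 with each probe set tested alone (Bcl2l11, Bmf, Mcl1 and Pmaip1). At 4 h it was 2, and 1 with probe sets averaged or arrays centred. Between 2 and 4 h it was 2, and 1 under the same settings. Between genotypes it was 0, and 2 under a trended, robust eBayes prior (Bcl2 and Bid), 1 at an adjusted p of 0.1 and 1 without the 4 h arrays. The interaction count was 0 under every alternative tried. Leaving out each array in turn gave 0 to 2 members at 2 h, 0 to 2 at 4 h, 0 to 2 between 2 and 4 h and 0 to 1 between genotypes; the lone array of a time is then assumed to vary like the others, and the interaction could not be fitted so. On single arrays, the 1 member 2-fold apart between genotypes at 0 h became 0 with probe sets averaged, quantile normalization again or arrays centred, and 2 at 1.5-fold (10.2% of all genes). At 4 h in KO the 1, Pmaip1, became 0 with quantile normalization again or arrays centred. At 1.5-fold, KO had 2 members past the size rule at either time, where 11.5% of all genes were at 2 h and 17.8% at 4 h, and wild-type had 2 at 2 h (14.6% of all genes) and 4 at 4 h (21.5%). Directions turned for Bcl2 in the interaction (-0.067, probe sets averaged) and Bmf at 4 h (0.093, without probe sets that may cross-hybridise). Leaving out arrays and probe set tests were chosen after seeing the data. Causes were not tested.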
